A study of Mus musculus with 9 samples.

Results

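The enzymes of the pentose phosphate pathway and of nucleotide synthesis were followed as 35 genes in the RNA of mouse OT-I CD8 T cells. The genes were chosen by symbol, as the listed enzymes of the pentose phosphate, purine, pyrimidine, salvage and deoxynucleotide routes, and all 35 were found among the 23936 genes with a symbol in the deposited table. The rule itself uses no measured value, but the list was chosen with earlier results of these data known. Counts of calls among the 35 genes are therefore descriptions only. OT-I cells carry a transgenic T cell receptor that recognises a peptide of ovalbumin presented by MHC class I. The series holds 9 libraries in 3 groups of 3. Naive OT-I cells were taken from the spleen, spleen-primed OT-I cells from the spleen (titled ivspleen), and MLN-primed OT-I cells from the MLN, the mesenteric lymph nodes that drain the gut (titled oralmln). Organ and the route named in the titles changed together between the primed groups, so their effects cannot be told apart. No naive cells came from the MLN, so in MLN-primed against naive cells organ and priming cannot be told apart either. A rise or fall on priming below means against these naive spleen cells. All groups share the OT-I receptor, and the labels give no age, sex, host strain, antigen or dose and no time after priming. They do not say whether the libraries of a group came from separate animals or pools, so the p-values given here cover only the spread among the deposited libraries, and this spread may be technical. The title of the series names retinoic acid signals at priming and intestinal CD103+ CD8 resident memory T cells.

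The pentose phosphate pathway takes glucose 6-phosphate out of glycolysis. Its oxidative branch makes NADPH and ribulose 5-phosphate, and its non-oxidative branch trades sugar phosphates back and forth with glycolysis. Ribose 5-phosphate is activated to PRPP, on which the purine ring is built step by step to IMP and to which the finished pyrimidine ring is attached. IMP is then turned into AMP or GMP, UMP into UTP and CTP, and ribonucleotide reductase makes the deoxynucleotides used for DNA. Resting T cells rely largely on salvage of bases and nucleosides, whereas T cells that divide after antigen stimulation switch on de novo synthesis, and drugs that block IMP dehydrogenase or dihydroorotate dehydrogenase are used to restrain lymphocytes.

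Values were FPKM, in which the fragments of a gene are set against its length and against how many fragments the library mapped, so levels can be compared between genes on a per-length scale. Total FPKM per library were 612887 to 720165, and 9469 to 9667 genes reached 1 FPKM. The size of a single fragment in genes of low level put the depth at about 20600000 to 34000000 fragments per library, an estimate from the values and not a deposited count. All 35 genes passed the filter of 1 FPKM in at least 3 libraries and so belong to the 10185 genes tested. Tk1, below 1 FPKM in each naive library, passed through the primed libraries only. The fewest estimated fragments were 18.6, for Tk1 in naive 1, where counting error alone is 23.2%. The 8 CD8 T cell markers summed to 4436 to 4717 FPKM in naive libraries, 3749 to 3796 after spleen priming and 2548 to 2710 after MLN priming. Dendritic cell and MHC class II markers summed to 93.8 to 165 FPKM in naive libraries and to at most 7.84 in primed ones, and stromal and endothelial markers to 37.5 to 44.1 and at most 4.57. Myeloid markers summed to 6.68 to 47.4, 45.7 to 49.0 and 15.7 to 19.0 FPKM in naive libraries and after spleen and MLN priming, NK cell markers to 4.95 to 11.5, 25.2 to 31.2 and 11.9 to 13.3, and CD4 T cell markers to 15.1 to 18.3, 9.31 to 13.5 and 8.53 to 11.6. B cell markers were at 14.9 FPKM or less, epithelial markers at 1.96 or less with Krt8 and Krt19 at 0 in every library, and red cell and platelet markers at 0.336 to 50.1 without separating the groups. Members of a sum did not all move alike. S100a8, at 1.82 to 19.6 FPKM in naive libraries, was at 0.154 or less in primed ones, while Itgam, at 0.218 to 0.522 in naive libraries, was at 28.7 to 32.0 after spleen priming and 7.63 to 10.2 after MLN priming. The NK cell sum was mostly Eomes, at 4.26 to 7.58, 22.8 to 29.4 and 11.4 to 12.8 FPKM, while Ncr1 and Klra8 stayed at 0.543 or less. Pecam1 made most of the stromal and endothelial sum, at 36.96 to 43.55 FPKM in naive and 2.005 to 4.2 in primed libraries. Cdh5 went the other way, from at most 0.105 to between 0.322 and 0.780. Most of the naive CD4 T cell sum was Cd40lg, at 13.2 to 17.2 FPKM and at most 6.77 in primed libraries. Cd4 stayed at 0.269 or less, and Zbtb7b was at most 0.682 in naive and 2.81 to 6.27 in primed libraries. These marker levels moved with the groups, and their part in the results was not tested.

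Most of the pathway was higher in both primed groups than in naive cells. Of the 35 genes, 29 rose and 2 fell (Prps2 and Ctps2) in spleen-primed against naive cells, by limma at a Benjamini-Hochberg adjusted p under 0.05. Among all genes tested, 43.1% rose and 32.7% fell in that comparison (75.8% in all). In MLN-primed against naive cells, 31 rose and 1 fell (Ctps2), against 45.5% of all genes that rose and 33.2% that fell (78.7% in all). In MLN-primed against spleen-primed cells, 20 rose, 1 fell (Taldo1) and 14 did not pass, against 17.3% of all genes that rose and 13.1% that fell (30.4% in all). The median log2 change over the 35 genes was 0.91, 1.44 and 0.40 in the 3 comparisons, beside 0.10, 0.15 and 0.03 over all genes tested. The first of these medians was 0.58 after quantile normalisation, and the last was 0.26 with spleen-primed 3 and MLN-primed 1 both left out. Counted by overlap, 29 of the 35 genes were higher and 2 lower in every spleen-primed than in any naive library (44.5% and 33.7% of all genes tested), and 31 higher and 1 lower in every MLN-primed one (45.8% and 34.6%). Log2 changes are given throughout on the log2(FPKM + 1) scale, which understates changes of genes at low FPKM, and both comparisons with naive cells share the same 3 naive libraries. In bulk RNA, fewer cells that use a gene and less of its RNA per cell cannot be told apart.

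**Figure D1:**
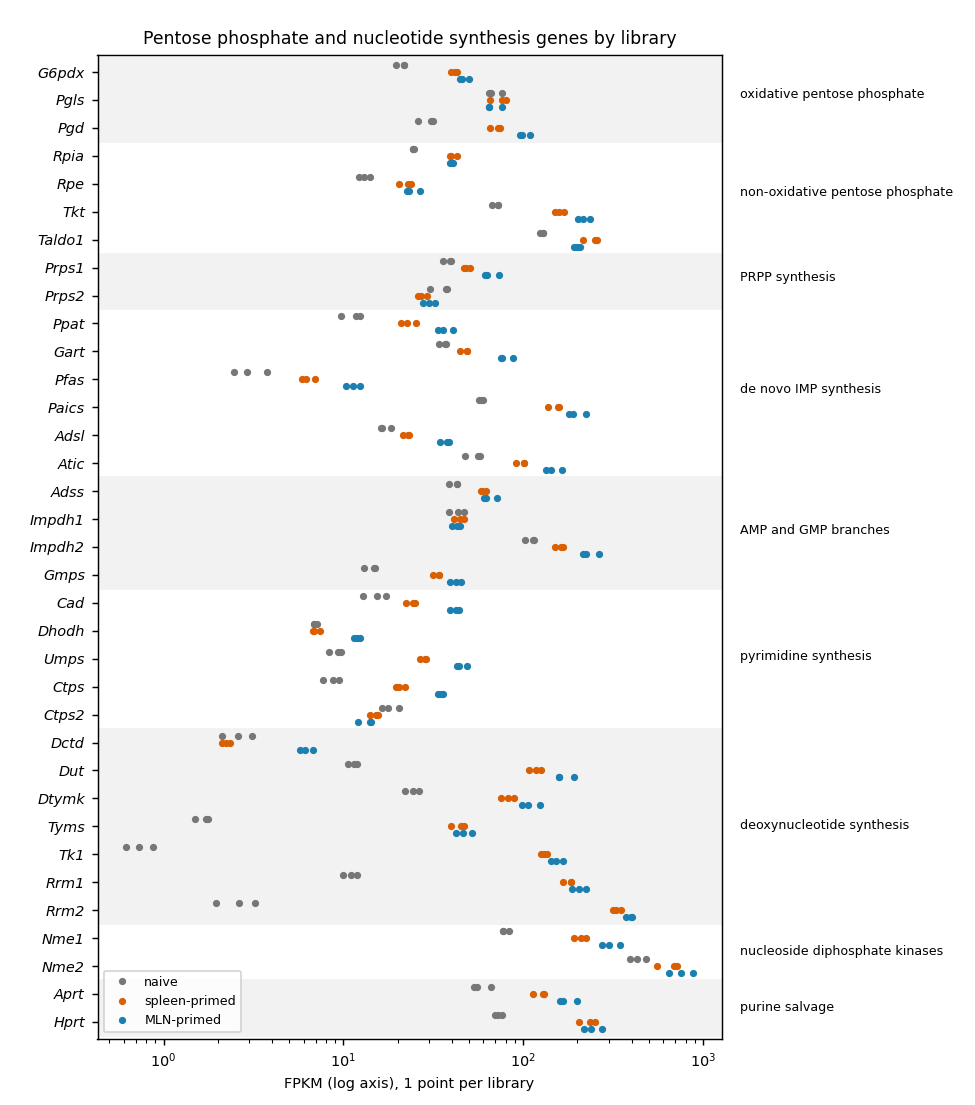
FPKM of each of the 35 genes on a log axis, with 1 point per library, grey for naive, orange for spleen-primed and blue for MLN-primed cells, grouped by enzyme role. The deoxynucleotide genes Rrm2 and Tk1 lie farthest apart between naive and primed libraries, and the 6 genes of de novo IMP synthesis step up from naive to spleen-primed to MLN-primed without overlap.

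By pattern over the 3 comparisons, 18 genes were higher in each primed group than in naive cells and higher again after MLN than after spleen priming. Another 10 were higher in both primed groups with no call between them. Dhodh and Dctd were called higher only in the comparisons that include MLN-primed cells. Taldo1 was higher in both primed groups and lower after MLN than after spleen priming. The share of all genes tested with each of these patterns was not counted. The pattern counts are therefore not read as particular to the pathway.

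**Figure D2:**
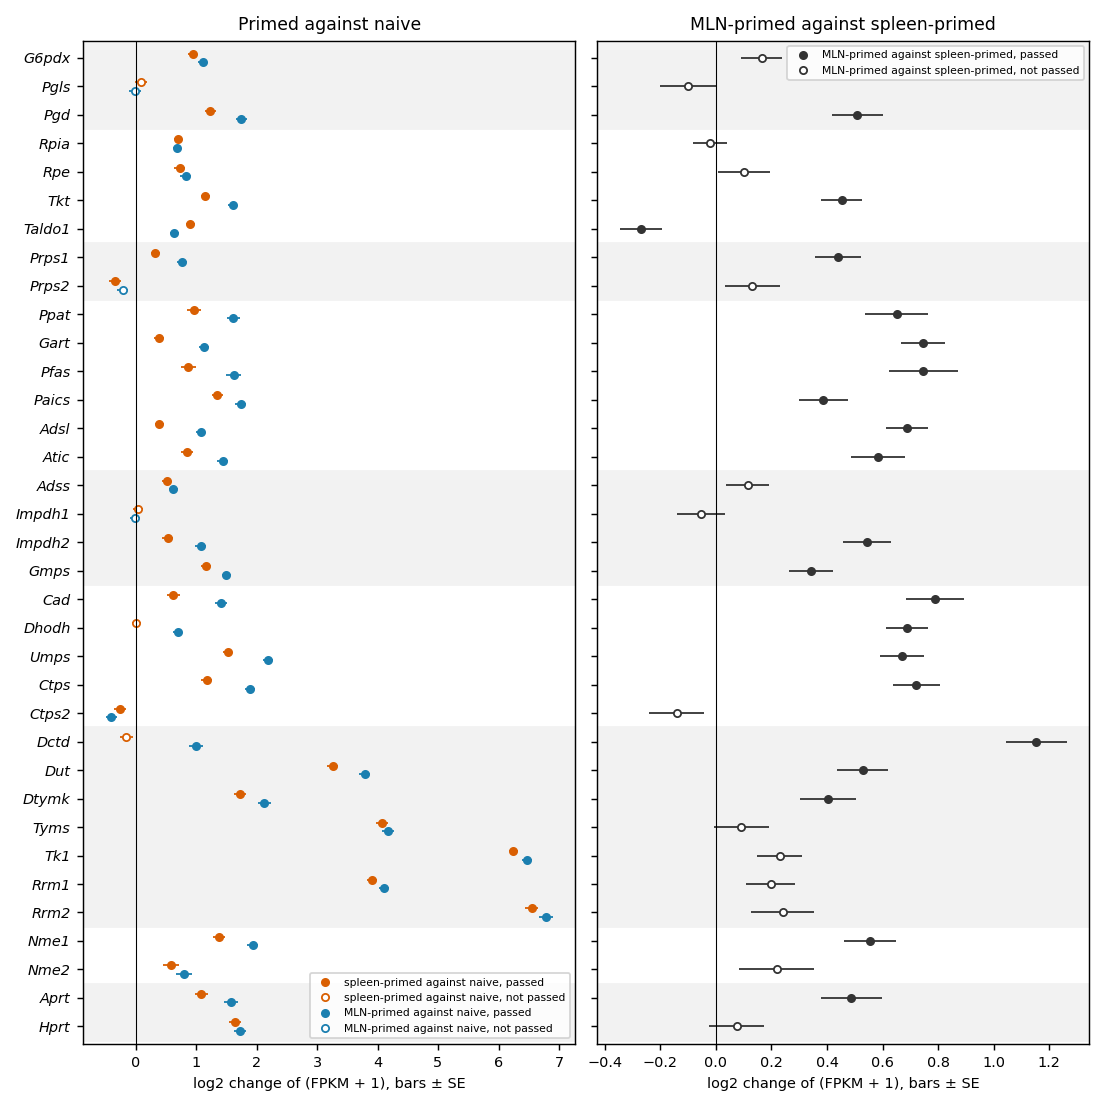
Log2 change of each of the 35 genes with its standard error, on the left for spleen-primed (orange) and MLN-primed (blue) against naive cells and on the right for MLN-primed against spleen-primed cells, where filled points passed the adjusted p of 0.05. On the left the changes of deoxynucleotide genes reach 6.79, while on the right the changes lie between -0.27 for Taldo1 and 1.15 for Dctd.

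In the oxidative pentose phosphate branch, G6pdx and Pgd rose in both primed groups, and the gene of the step between them, Pgls, passed in none of the comparisons. G6pdx, whose enzyme opens the branch and yields its first NADPH, was at 21.8, 19.7 and 21.7 FPKM in naive 1 to 3, at 39.7, 43.0 and 41.6 in spleen-primed 1 to 3, and after MLN priming at 44.3 to 49.8. Naive libraries lay below all primed ones, with log2 changes of 0.95 ± 0.07 (SE, adjusted p = 1.18e-06) and 1.11 ± 0.07 (adjusted p = 2.86e-07). MLN-primed libraries also lay above spleen-primed ones without overlap, but the difference of 0.16 ± 0.07 did not pass (adjusted p = 0.119). Pgd, which encodes the dehydrogenase of the second NADPH-yielding step, was at 30.7, 25.9 and 31.6 FPKM in naive libraries, 72.0, 74.1 and 65.6 after spleen priming and 109, 98.2 and 95.4 after MLN priming. Its 3 groups did not overlap, and MLN-primed exceeded spleen-primed cells by 0.51 ± 0.09 (adjusted p = 0.00261), a ratio of means of 1.43. Pgls, the lactonase gene, was at 64.7 to 75.7 FPKM in naive libraries, 65.3 to 79.9 after spleen priming and 64.6 to 76.7 after MLN priming, which overlapped throughout. It passed as lower in both primed groups against naive after quantile normalisation (-0.39 and -0.55) and with a trend on transcript length removed (-0.34 and -0.48). Between the primed groups it passed as lower with spleen-primed 3 and MLN-primed 1 both left out (-0.26, adjusted p = 0.0385). G6pdx overlaps Ikbkg on the opposite strand over 278 bases, and Pgls overlaps Fam129c on the same strand over 404 bases. Whether the counting used strand is not given in the sources used here, so reads in these stretches may be shared. The same holds for Rpe with Kansl1l (558 bases), Impdh2 with Ndufaf3 (48), Tk1 with Afmid (83), Gart with the antisense gene Gm15964 (427) and Umps with the antisense gene Gm15829 (213).

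All 4 genes of the non-oxidative branch rose in both primed groups, except that Taldo1 was at -0.02 in MLN-primed against naive cells after quantile normalisation, and transketolase and transaldolase then parted between the primings. Beside these 4, the shares of all genes tested that rose against naive cells were 43.1% after spleen and 45.5% after MLN priming. Tkt, the transketolase gene, was at 67.3, 72.7 and 72.1 FPKM in naive libraries, 151, 157 and 168 after spleen priming and 202, 215 and 236 after MLN priming. Its log2 changes were 1.15 ± 0.07 and 1.61 ± 0.07 against naive cells and 0.45 ± 0.07 between the primed groups (adjusted p = 0.00172), with no overlap. Taldo1, which encodes transaldolase, was at 129, 124 and 129.5 FPKM in naive libraries, 251, 257 and 215 after spleen priming and 208, 191 and 199 after MLN priming. It was the one gene of the 35 that fell in MLN-primed against spleen-primed cells, by 0.27 on the log2 scale (SE 0.08, adjusted p = 0.0247). The lowest spleen-primed value, 215 FPKM, lay just above the highest MLN-primed value, 208. That call was lost without spleen-primed 1, spleen-primed 2, MLN-primed 2 or MLN-primed 3, with log2 changes of -0.24, -0.22, -0.24 and -0.27. Rpia and Rpe, the isomerase and epimerase genes that interconvert the pentose phosphates, differed less. Rpia was at 24.3 to 24.8 FPKM in naive libraries, 39.0 to 42.6 after spleen priming and 39.2 to 40.6 after MLN priming. Rpe was at 12.2 to 14.0, 20.4 to 23.7 and 22.5 to 26.7 FPKM. Both rose by 0.68 to 0.83 on the log2 scale against naive cells, and their changes between the primed groups, -0.02 ± 0.06 and 0.10 ± 0.09, did not pass.

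Both genes of PRPP synthetase, which activates ribose 5-phosphate, changed in spleen-primed against naive cells, Prps1 upward and Prps2 downward, with Prps1 at -0.07 after quantile normalisation. Prps1 was at 39.7, 36.0 and 39.1 FPKM in naive libraries, 50.4, 47.8 and 46.6 after spleen priming and 73.7, 63.2 and 61.0 after MLN priming, with no overlap between groups. It rose by 0.33 ± 0.08 in spleen-primed (adjusted p = 0.00448) and 0.77 ± 0.08 in MLN-primed cells against naive, and by 0.44 ± 0.08 between the primed groups (adjusted p = 0.00338). The spleen-primed rise of Prps1 was 0.21 (adjusted p = 0.0726) after median-of-ratios scaling. Prps2 was at 37.7, 30.3 and 37.3 FPKM in naive libraries, 29.0, 27.0 and 25.9 after spleen priming and 32.3, 30.1 and 27.6 after MLN priming. It fell in spleen-primed cells by 0.35 on the log2 scale (SE 0.10, adjusted p = 0.00884). In MLN-primed cells, whose libraries overlapped the naive ones, the change of -0.22 ± 0.10 did not pass (adjusted p = 0.0669), but it passed under 6 of the alternatives, among them the fits without naive 2 (-0.32) and without MLN-primed 1 (-0.27).

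De novo IMP synthesis was the group in which every gene rose at each step. Its 6 genes, Ppat, Gart, Pfas, Paics, Adsl and Atic, were all called higher in both primed groups than in naive cells and higher after MLN than after spleen priming, with Gart as the exception at -0.003 in spleen-primed against naive cells after quantile normalisation. In none of the 6 did any groups overlap. The shares of all genes tested called higher were 43.1% and 45.5% against naive cells after spleen and MLN priming, and 17.3% between the primed groups. Those higher without overlap were 44.5%, 45.8% and 25.1%. Their summed level was 179 ± 10.8 FPKM in naive cells, 347 ± 20.2 after spleen priming and 509 ± 49.3 after MLN priming (mean ± SD, n = 3). Ppat, the amidotransferase gene of the committed first step, was at 12.4, 9.67 and 11.7 FPKM in naive libraries, 25.3, 22.6 and 20.9 after spleen priming and 40.7, 35.7 and 33.4 after MLN priming. Between the primed groups it rose by 0.65 ± 0.11 (adjusted p = 0.00221). Gart, whose product carries several of the activities on a single polypeptide, was at 33.9 to 37.3 FPKM in naive libraries, 44.8 to 48.8 after spleen priming and 75.4 to 88.2 after MLN priming. For Gart the step between the primed groups, 0.74 ± 0.08 (adjusted p = 1.76e-04), was larger than the step from naive to spleen-primed cells, 0.38 ± 0.08, though these 2 steps share the spleen-primed libraries and their difference was not tested. Pfas, the gene of a glutamine-using synthase in the middle of the route, was the lowest of the group at 2.91, 2.48 and 3.75 FPKM in naive libraries, 5.86, 6.22 and 6.99 after spleen priming and 10.4, 12.3 and 11.4 after MLN priming, and rose by 0.75 ± 0.12 between the primed groups (adjusted p = 0.00184). Paics, a bifunctional carboxylase and synthase, was the highest at 56.8 to 59.4, 137 to 158 and 181 to 223 FPKM, and showed the smallest step of the 6 between the primed groups, 0.39 ± 0.09 (adjusted p = 0.00962). Adsl, the lyase that acts both here and in AMP synthesis, was at 16.2 to 18.3, 21.5 to 23.3 and 34.7 to 38.4 FPKM and rose by 0.69 ± 0.08 between the primed groups (adjusted p = 1.99e-04). Atic, which closes the purine ring, was at 47.6 to 57.7, 91.2 to 101 and 134 to 165 FPKM and rose by 0.58 ± 0.10 (adjusted p = 0.00185). After the same normalisation the change of Adsl in spleen-primed cells was 0.14 (adjusted p = 0.101). The other 4 genes passed in all 3 comparisons under every alternative run.

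Ppat and Paics start from the same stretch of mouse chromosome 5 in opposite directions, Paics at chr5:76951302-76967509 on the plus strand and Ppat at chr5:76913249-76951578 on the minus strand of GRCm38.p6, the mm10 assembly. By the starts RefSeq gives, their first 277 bases lie on top of each other, and if strand was not used in counting, reads from that stretch cannot be told apart. Promoter windows of 300 bases, 250 before and 50 after each RefSeq start, were found for 33 of the 35 genes, as 42 windows in all. They were searched on both strands for the E-box CACGTG, for CCAAT, and for the E2F-type heptamers TTCCCGC or TTCGCGC or TTGCCGC or TTGGCGC. The 5 windows printed here, which belong to this pair, to 2 other purine genes that rose at each step and to Rrm2 with the largest log2(FPKM + 1) change against naive cells (Tk1 has the larger ratio of means), are printed 5′ to 3′ on the strand of the gene with these matches in capitals, from RefSeq on GRCm38.p6.
Paics, chr5:76951052-76951351, plus strand: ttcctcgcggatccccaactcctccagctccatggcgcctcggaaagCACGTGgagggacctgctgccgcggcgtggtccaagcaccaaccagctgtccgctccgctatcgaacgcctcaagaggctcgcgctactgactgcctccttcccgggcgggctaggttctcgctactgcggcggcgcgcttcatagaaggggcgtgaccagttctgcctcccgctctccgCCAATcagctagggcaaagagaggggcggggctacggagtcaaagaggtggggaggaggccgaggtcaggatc
Ppat, chr5:76951529-76951828, minus strand: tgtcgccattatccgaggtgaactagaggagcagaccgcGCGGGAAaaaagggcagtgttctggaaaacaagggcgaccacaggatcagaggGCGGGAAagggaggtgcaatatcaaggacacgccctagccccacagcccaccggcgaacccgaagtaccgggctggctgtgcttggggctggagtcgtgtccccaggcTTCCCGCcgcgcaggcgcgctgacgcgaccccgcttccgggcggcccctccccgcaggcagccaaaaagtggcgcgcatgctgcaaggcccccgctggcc
Atic, chr1:71556906-71557205, plus strand: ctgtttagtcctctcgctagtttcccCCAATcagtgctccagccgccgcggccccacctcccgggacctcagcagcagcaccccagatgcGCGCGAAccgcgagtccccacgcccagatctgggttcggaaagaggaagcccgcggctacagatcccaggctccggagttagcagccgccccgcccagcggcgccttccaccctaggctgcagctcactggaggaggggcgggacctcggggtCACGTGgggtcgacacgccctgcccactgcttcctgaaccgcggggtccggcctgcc
Impdh2, chr9:108560186-108560485, plus strand: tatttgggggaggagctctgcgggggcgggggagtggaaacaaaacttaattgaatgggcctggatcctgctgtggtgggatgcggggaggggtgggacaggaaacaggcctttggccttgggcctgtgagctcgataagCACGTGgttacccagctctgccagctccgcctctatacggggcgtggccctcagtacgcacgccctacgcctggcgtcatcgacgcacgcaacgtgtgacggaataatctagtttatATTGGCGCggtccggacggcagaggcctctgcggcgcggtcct
Rrm2, chr12:24708004-24708303, plus strand: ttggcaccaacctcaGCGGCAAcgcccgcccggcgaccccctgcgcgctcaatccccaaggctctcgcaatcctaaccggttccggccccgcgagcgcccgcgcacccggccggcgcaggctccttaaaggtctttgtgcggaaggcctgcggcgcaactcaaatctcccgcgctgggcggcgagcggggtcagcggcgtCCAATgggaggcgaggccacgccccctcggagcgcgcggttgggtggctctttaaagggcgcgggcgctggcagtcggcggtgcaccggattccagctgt
In these windows the left end of the E-box lies at -203 in Paics, -7 in Atic and -110 in Impdh2, counted from the start as +1 with no zero. A CCAAT box lies at -23 in Paics, -224 in Atic, -50 in Rrm2 and 8 in Impdh2, where it overlaps an E2F-type match at 9. E2F-type matches lie at -160 in Atic and -235 in Rrm2, and Ppat holds 3 of them and neither other motif. The printed windows do not stand for the others. Adsl, Gmps and Aprt, purine genes that also rose at each step, held none of the 3 motifs, and Gart held only a CCAAT box. Tk1 and Dut of the deoxynucleotide group held none either. The windows of Dut (chr2:125247265-125247564) and Gmps (chr3:63975893-63976192) lie inside these plus-strand genes, which are placed from 125247248 and 63963633. Bases before those outer starts were not searched. Over the windows of the 35 genes, 12 of 42 held an E2F-type match (28.6%), 7 an E-box (16.7%) and 14 a CCAAT box (33.3%), and several windows of a gene can overlap. Among all 32851 RefSeq windows of the same length the shares were 9.57%, 7.15% and 37.4%. A match describes letters in the window and no factor binding was measured.

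Among the genes placed in the AMP and GMP branches, those that rose between the primed groups, Impdh2 and Gmps, belong to the GMP arm. Adsl, placed under IMP synthesis, also acts on the AMP arm and rose by 0.69 ± 0.08 between the primed groups. Impdh2, the IMP dehydrogenase gene of the first GMP step, was at 103, 114 and 113 FPKM in naive libraries, 162, 166 and 151 after spleen priming and 263, 216 and 222 after MLN priming. Its groups did not overlap, and MLN-primed exceeded spleen-primed cells by 0.54 ± 0.09 (adjusted p = 0.00144). Its sister gene Impdh1 was at 38.5 to 46.8 FPKM in naive libraries, 41.0 to 46.6 after spleen priming and 40.0 to 44.8 after MLN priming, which overlapped fully, and its changes lay between -0.05 and 0.04. Impdh1 passed as lower against naive in both primed groups after quantile normalisation (-0.37 and -0.46). Gmps, the GMP synthase gene, was at 13.1 to 15, 31.4 to 34.2 and 39.2 to 45.1 FPKM and rose by 1.16 ± 0.08, 1.5 ± 0.08 and 0.34 ± 0.08 (adjusted p = 0.0101 for the last). With the length trend removed, the Gmps difference between the primed groups did not pass (0.30, adjusted p = 0.139). On the AMP arm, Adss, the adenylosuccinate synthase gene, was at 38.9 to 43.0 FPKM in naive libraries, 57.9 to 61.9 after spleen priming and 60.7 to 71.4 after MLN priming. It rose on priming by 0.51 ± 0.08 and 0.63 ± 0.08, while its difference between the primed groups, 0.11 ± 0.08, did not pass (adjusted p = 0.311). Impdh2 against naive was 0.53 ± 0.09 in spleen-primed cells and turned to -0.06 after quantile normalisation, where Adss was at 0.09 (adjusted p = 0.265).

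Pyrimidine synthesis showed the same stepwise order in 3 genes and a different one in Dhodh and Ctps2. Cad, at chr5:31054620-31078479, encodes the large multifunctional enzyme that opens the pathway. It was at 15.5, 12.9 and 17.3 FPKM in naive libraries, 22.2, 24.9 and 24.4 after spleen priming and 42.3, 44.2 and 39.2 after MLN priming. The log2 changes of Cad were 0.62 ± 0.10 and 1.41 ± 0.10 against naive cells and 0.79 ± 0.10 between the primed groups (adjusted p = 5.37e-04), a ratio of means of 1.76. Dhodh encodes the mitochondrial dehydrogenase of the next step, which is coupled to the respiratory chain. It was at 7.14, 6.86 and 6.82 FPKM in naive libraries, 6.75, 7.37 and 6.84 after spleen priming and 11.9, 11.4 and 12.3 after MLN priming. Spleen-primed libraries of Dhodh were interleaved with the naive ones (0.01 ± 0.07, adjusted p = 0.933) and all MLN-primed libraries lay above both. MLN-primed cells exceeded naive cells by 0.70 ± 0.07 (adjusted p = 1.12e-05) and spleen-primed cells by 0.69 ± 0.07 (adjusted p = 1.94e-04). With the length trend removed, the spleen-primed change of Dhodh was -0.22 (adjusted p = 0.0145). Umps, whose product completes UMP, was at 9.35, 8.34 and 9.72 FPKM in naive libraries, 28.5, 28.8 and 26.8 after spleen priming and 48.7, 42.9 and 44.1 after MLN priming. Its rise of 2.19 ± 0.08 in MLN-primed against naive cells exceeded that of every other gene of the ribonucleotide routes among the 35, and it rose by 0.67 ± 0.08 between the primed groups (adjusted p = 3.33e-04). Both CTP synthase genes, which make CTP from UTP, moved apart. Ctps was at 8.72, 7.71 and 9.49 FPKM in naive libraries, 22.1, 19.6 and 20.4 after spleen priming and 35.8, 33.5 and 35 after MLN priming, and rose by 0.72 ± 0.09 between the primed groups (adjusted p = 3.22e-04). Ctps2 was at 20.4, 17.6 and 16.3 FPKM in naive libraries, 15.6, 15.2 and 14.1 after spleen priming and 14.1, 14.2 and 12.1 after MLN priming. It fell by 0.40 on the log2 scale in MLN-primed against naive cells (SE 0.10, adjusted p = 0.00388). The spleen-primed fall of Ctps2 by 0.26 on the log2 scale (SE 0.10, adjusted p = 0.0366) did not pass without naive 1, without naive 2 or without any 1 of the spleen-primed libraries, with log2 changes between -0.29 and -0.17.

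Deoxynucleotide synthesis held the largest rises on priming. Rrm2, at chr12:24708254-24714146, encodes the small subunit of ribonucleotide reductase that carries its radical and is made in S phase. It was at 2.62, 1.95 and 3.23 FPKM in naive libraries, 348, 317 and 330.0 after spleen priming and 404, 399 and 373 after MLN priming, 128 and 151 times the naive mean. On the log2 scale it rose by 6.55 ± 0.11 (adjusted p = 4.74e-11) and 6.79 ± 0.11 (adjusted p = 3.60e-11). Tk1, the cytosolic thymidine kinase gene, was at 0.730, 0.617 and 0.876 FPKM in naive libraries, 131, 136 and 126 after spleen priming and 166, 143 and 153 after MLN priming. Its rises of 6.25 ± 0.08 and 6.48 ± 0.08 start from few naive fragments and are understated on this scale, since the ratios of means were 177 and 208. Rrm1, the large reductase subunit gene, was at 11.9, 9.97 and 11.0 FPKM in naive libraries, 185, 185 and 166 after spleen priming and 223, 205 and 188 after MLN priming. Tyms, the thymidylate synthase gene, was at 1.71, 1.49 and 1.77 FPKM in naive libraries, 47.1, 45.1 and 39.5 after spleen priming and 52.1, 42.3 and 46.1 after MLN priming. Rrm1 and Tyms rose by 3.91 ± 0.09 and 4.08 ± 0.10 after spleen priming and by 4.11 ± 0.09 and 4.17 ± 0.10 after MLN priming. These 4 genes did not pass between the primed groups. MLN-primed libraries of Rrm2, Tk1 and Rrm1 all lay above the spleen-primed ones, with changes of 0.24 ± 0.11 (adjusted p = 0.146), 0.23 ± 0.08 (adjusted p = 0.0582) and 0.20 ± 0.09 (adjusted p = 0.119), while Tyms overlapped at 0.09 ± 0.10 (adjusted p = 0.537). Rrm2 and Tk1 passed with only the 6 primed libraries fitted (adjusted p = 0.0300 and 0.0484) and without naive 2 (adjusted p = 0.0420 and 0.0459), and Tk1 also without naive 3 (adjusted p = 0.0489).

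The other 3 genes of this group, which act on dUTP, dCMP and dTMP, did rise between the primed groups. Dctd, at chr8:48099092-48141667, encodes the deaminase that makes dUMP from dCMP. It was at 2.12, 2.59 and 3.10 FPKM in naive libraries, 2.33, 2.22 and 2.12 after spleen priming and 6.73, 5.72 and 6.08 after MLN priming. As with Dhodh, spleen-primed and naive libraries overlapped (-0.15 ± 0.11, adjusted p = 0.229) and every MLN-primed library lay above both. Its change between the primed groups, 1.15 ± 0.11 (adjusted p = 9.92e-05), was the largest of the 35, with a ratio of means of 2.78. Dut, which removes dUTP and supplies dUMP, was at 11.9, 10.7 and 11.5 FPKM in naive libraries, 126, 117 and 108 after spleen priming and 191, 159 and 159 after MLN priming, and rose by 0.53 ± 0.09 between the primed groups (adjusted p = 0.00220). Dtymk, the thymidylate kinase gene, was at 22.0, 24.4 and 26.2 FPKM in naive libraries, 88.8, 82.5 and 75.7 after spleen priming and 123, 98.4 and 107 after MLN priming. Its difference of 0.40 ± 0.10 between the primed groups passed (adjusted p = 0.0139), but was 0.26 (adjusted p = 0.0585) with spleen-primed 3 and MLN-primed 1 both left out. With the length trend removed, Dctd fell in spleen-primed against naive cells by 0.42 on the log2 scale (adjusted p = 0.00400).

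Nucleoside diphosphate kinases, which make the triphosphates, include Nme2, the transcript with the highest mean level of the 35 in each group. Nme2 was at 392, 479.9 and 430.5 FPKM in naive libraries, 718, 689.5 and 553 after spleen priming and 880.4, 649.6 and 755 after MLN priming. Nme1 was at 77.3, 77.0 and 83.1 FPKM in naive libraries, 223, 210.5 and 191 after spleen priming and 347, 274 and 299 after MLN priming. Nme1 rose between the primed groups by 0.55 ± 0.09 (adjusted p = 0.00195), and the Nme2 libraries overlapped (0.22 ± 0.13, adjusted p = 0.259), though Nme2 passed after quantile normalisation (0.31, adjusted p = 0.0197). Nme2 rose by 0.59 ± 0.13 in spleen-primed against naive cells, a change that was -0.11 after quantile normalisation and 0.14 (adjusted p = 0.195) with the length trend removed. Nme1 and Nme2 lie next to each other on chromosome 11 and share exons with the readthrough gene Gm20390, so the split of reads between them is uncertain. The transcript length on which the FPKM of Nme1 rest was not given and could not be settled from the annotation, so its level relative to other genes is uncertain too. Aprt, which recovers adenine, was at 55.1, 66.0 and 53.2 FPKM in naive libraries, 129, 130.5 and 113 after spleen priming and 199, 159.9 and 166 after MLN priming. Hprt, which recovers hypoxanthine and guanine, was at 72.7, 69.2 and 76.3 FPKM in naive libraries, 250.2, 236 and 205 after spleen priming and 273, 239 and 217 after MLN priming. Both salvage genes rose on priming, Hprt by 1.65 ± 0.10 and 1.72 ± 0.10 and Aprt by 1.09 ± 0.11 and 1.58 ± 0.11. Aprt also rose between the primed groups (0.49 ± 0.11, adjusted p = 0.00810), while Hprt libraries overlapped (0.07 ± 0.10, adjusted p = 0.618).

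Compared by role, the difference between the primed groups lay most often in the routes that build the rings. All 6 genes of IMP synthesis and 4 of 5 of pyrimidine synthesis rose in MLN-primed against spleen-primed cells. In the other roles 1 of 3 oxidative and 1 of 4 non-oxidative pentose phosphate genes, 1 of 2 PRPP synthetases, 2 of 4 genes of the AMP and GMP branches, 3 of 7 deoxynucleotide genes, 1 of 2 diphosphate kinases and 1 of 2 salvage genes rose. Among all genes tested 17.3% rose in this comparison, and a count such as 1 of 4 lies near that share. No test was made between roles. The summed level of the 5 pyrimidine genes was 58.1 ± 4.08, 94.5 ± 1.78 and 147 ± 5.16 FPKM in naive libraries and after spleen and MLN priming, and that of the 7 deoxynucleotide genes 54.1 ± 3.17, 887 ± 40.8 and 1083 ± 72.9. Counted by overlap, 24 of the 35 genes were higher in every MLN-primed than in any spleen-primed library and 1 was lower, beside 25.1% and 21% of all genes tested.

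Where a step is served by sister genes, the balance between them was compared within each library, which cancels any scale factor of the library. The ratio of Ctps to Ctps2 was 0.482 ± 0.0857 in naive cells, 1.39 ± 0.0836 after spleen priming and 2.60 ± 0.265 after MLN priming (mean ± SD, n = 3), so the more abundant transcript changed from Ctps2 to Ctps. Impdh2 over Impdh1 was 2.59 ± 0.334, 3.63 ± 0.363 and 5.54 ± 0.913, and Prps1 over Prps2 was 1.10 ± 0.0782, 1.77 ± 0.0336 and 2.20 ± 0.0924. Nme1 over Nme2 was 0.184 ± 0.0202, 0.320 ± 0.0216 and 0.404 ± 0.0157, and its absolute size is uncertain because of the shared reads and the transcript length of Nme1. Rrm2b encodes the alternative small subunit of the reductase that works outside S phase, and it fell from 8.98 ± 0.657 FPKM in naive cells to 4.83 ± 0.309 after spleen priming and 4.25 ± 0.0856 after MLN priming. Rrm2 over Rrm2b was 0.287 ± 0.0513 in naive cells, 68.8 ± 1.79 after spleen priming and 92.1 ± 2.34 after MLN priming. In 17 of the 18 comparisons of these 6 ratios the groups did not overlap, and each had an exact two-sided permutation p of 0.1, the smallest that 3 against 3 libraries allow (0.106 after Benjamini-Hochberg adjustment over the 18). The exception was Rrm2 over Rrm1, the balance of the reductase subunits, at 1.86 ± 0.136 after spleen priming and 1.92 ± 0.0921 after MLN priming (exact permutation p = 0.7), both above the naive 0.237 ± 0.0513. No share over other pairs of genes was counted, so the number without overlap is not read as particular to these pairs.

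**Figure D3:**
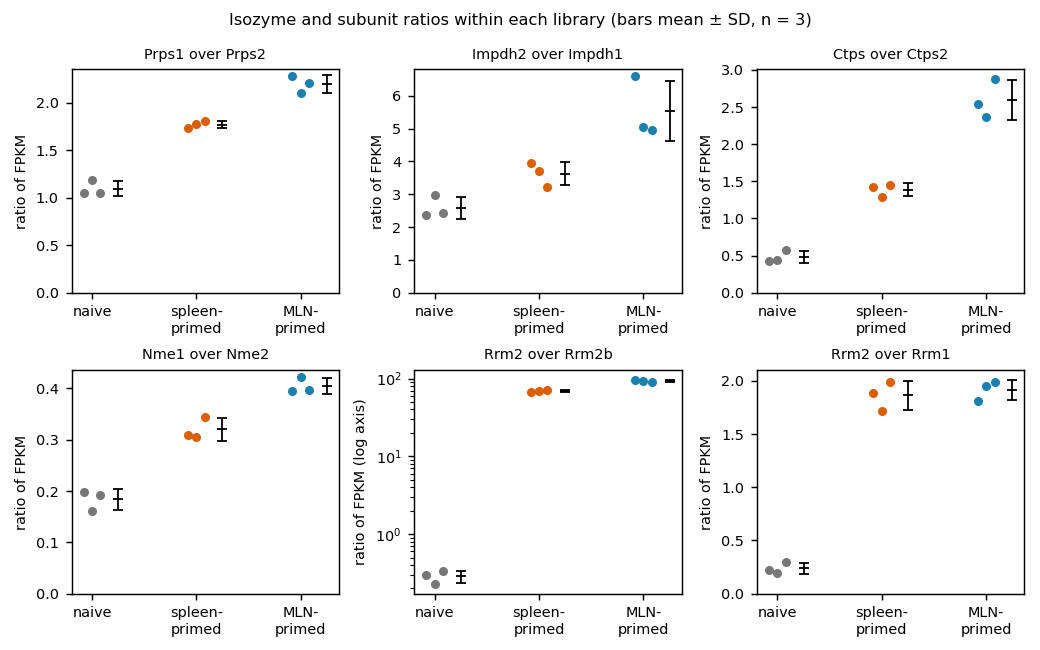
Ratios of FPKM between sister genes or subunits in each library, with 1 point per library and the mean ± SD of 3 libraries beside them; the panel of Rrm2 over Rrm2b has a log axis. Ctps over Ctps2 steps from 0.482 to 1.39 to 2.60, whereas Rrm2 over Rrm1 overlaps between the primed groups at 1.86 and 1.92.

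Genes around the pathway were taken from 7 further lists. Of 15 tested genes of folate and one-carbon metabolism, which supply carbon for purines and thymidylate, 11 rose and 1 fell in MLN-primed against spleen-primed cells, with a median log2 change of 0.59. Slc19a1, the reduced folate carrier gene, was at 7.44 ± 0.635 FPKM in naive cells, 7.68 ± 0.223 after spleen priming and 17.6 ± 1.43 after MLN priming and rose by 1.09 ± 0.09 (adjusted p = 4.32e-05). Shmt1 and Gcsh, of cytosolic serine and mitochondrial glycine cleavage, rose by 0.97 ± 0.08 each. Against naive cells, 11 of the 15 rose and 2 fell in spleen-primed and 13 rose and 1 fell in MLN-primed cells. The shares of all genes tested that rose and fell there were 43.1% and 32.7%, then 45.5% and 33.2%. Between the primed groups these shares were 17.3% and 13.1%.

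Of 29 tested genes of other salvage and interconversion steps, 10 rose and 3 fell between the primed groups, with a median of 0.10. Of all genes tested 17.3% rose and 13.1% fell there. Adk, the adenosine kinase gene, rose by 0.77 ± 0.10 and Nme6 by 0.68 ± 0.10. Nme4, which encodes a mitochondrial diphosphate kinase, was at 12 ± 0.795 FPKM in naive cells, 2.78 ± 0.128 after spleen priming and 7.60 ± 0.846 after MLN priming, so it fell in both primed groups, and rose by 1.18 ± 0.09 from spleen-primed to MLN-primed (adjusted p = 4.00e-05). In the same list 18 rose and 9 fell in spleen-primed and 19 rose and 8 fell in MLN-primed against naive cells. Of all genes tested, 43.1% rose and 32.7% fell in spleen-primed and 45.5% rose and 33.2% fell in MLN-primed against naive cells. Ampd1, an AMP deaminase gene, fell from 6.96 ± 0.817 to 0.0722 ± 0.0438 and 0.283 ± 0.0665 FPKM, while purine nucleoside phosphorylase (Pnp) rose from 14.6 ± 1.61 to 53.2 ± 5.39 and 55.0 ± 5.42. Ampd1 passed the filter of 1 FPKM only through the naive libraries, where it is high, and no p-value is given for it.

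Of 13 tested genes of breakdown and dNTP hydrolysis, 2 rose and 2 fell between the primed groups, shares near the 17.3% and 13.1% of all genes tested. The call of Xdh, 1 of the falls (-0.47, adjusted p = 0.0494), was lost under 10 of the alternatives, among them single omissions of naive 1, naive 3, spleen-primed 2, spleen-primed 3, MLN-primed 1 and MLN-primed 3 (-0.51 to -0.32). Nt5e, the ecto-5′-nucleotidase CD73, was at 3.46 ± 1.41, 1.22 ± 0.278 and 4.45 ± 0.235 FPKM and rose by 1.30 ± 0.20 (adjusted p = 0.00114). Dctpp1, which hydrolyses dCTP, rose by 0.49 ± 0.11. Against naive cells 5 of the 13 rose and 2 fell in spleen-primed, and 5 rose and 3 fell in MLN-primed cells. Those calls make 53.8% and 61.5% of the 13, below the 75.8% and 78.7% of all genes tested. Of 8 other pentose phosphate and sugar genes, 1 rose and 2 fell between the primed groups, and 5 rose and 2 fell in each primed group against naive. Of all genes tested 17.3% rose and 13.1% fell between the primed groups. Against naive, 43.1% to 45.5% rose and 32.7% to 33.2% fell. The transketolase-like gene Tktl1 was at 0.0235 ± 0.0258 FPKM in naive cells, 1.40 ± 0.0974 after spleen priming and 0.178 ± 0.0358 after MLN priming. Its log2 change between the primed groups was -1.02 ± 0.07, opposite in direction to that of Tkt. Tktl1 passed the filter of 1 FPKM only through the spleen-primed libraries, where it is high, so no p-value is given for it. Of 4 nucleoside transporters, 1 rose (Slc29a2, 0.63 ± 0.10) and 1 fell (Slc28a2, -0.48 ± 0.08). Slc29a2 was at 0.470 ± 0.155 FPKM after spleen priming and 1.27 ± 0.135 after MLN priming, near the filter of 1 FPKM. In spleen-primed against naive cells 1 of the 4 transporters rose and 3 fell, and in MLN-primed cells 2 rose and 2 fell. These counts rest on 4 genes and stand beside the same shares of all genes tested.

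Cell cycle genes are given beside the deoxynucleotide genes because they moved with them. All 20 genes of S phase and replication and all 14 of mitosis rose in each primed group against naive cells, with medians of 2.97 and 5.59 after spleen priming and 3.11 and 5.63 after MLN priming. Ccnb1, at 0.745 ± 0.121 FPKM in naive cells, passed the filter of 1 FPKM only through the primed libraries, where it is high. Its rise in these counts is therefore no separate support, and other genes that passed in this way were not counted. Between the primed groups 12 of the 20 S phase genes and 1 of the 14 mitosis genes rose and none fell, with medians of 0.27 and 0.13. That mitosis gene was Bub1 (0.26 ± 0.08, adjusted p = 0.0262). The Bub1 call was lost under several alternatives, among them a pseudocount of 0.1 (0.27, adjusted p = 0.0976) and the fit without MLN-primed 1 (0.25, adjusted p = 0.0691). Among all genes tested, 43.1% and 45.5% rose against naive cells after spleen and MLN priming, and 17.3% rose between the primed groups. The cyclin E genes Ccne1 and Ccne2 rose by 0.69 ± 0.08 and 0.53 ± 0.13. The Ccne2 call was lost without spleen-primed 2 (0.46, adjusted p = 0.0565) and with spleen-primed 3 and MLN-primed 1 both left out (0.37, adjusted p = 0.0619). Their part in the changes of the 35 genes was not tested.

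**Figure D4:**
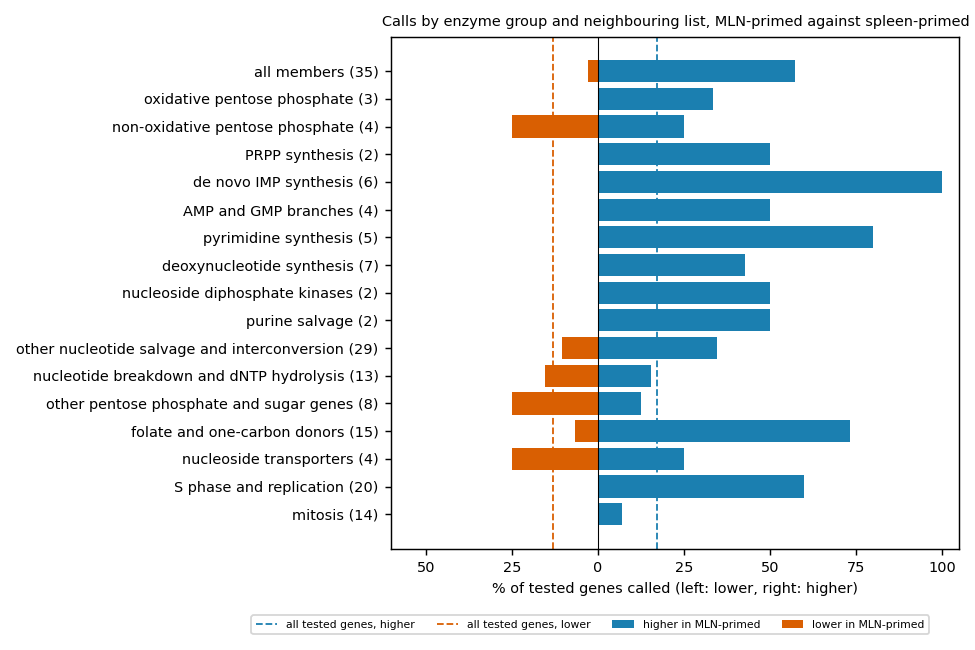
Share of tested genes called higher (right, blue) or lower (left, orange) in MLN-primed against spleen-primed cells for the 35 genes, each enzyme role and the 7 neighbouring lists, with the number tested in brackets and dashed lines at the 17.3% and 13.1% of all tested genes. De novo IMP synthesis, pyrimidine synthesis and the folate list reach farthest to the right, with 6 of 6, 4 of 5 and 11 of 15 genes higher.

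The primed libraries also differed in a trend with transcript length, most in MLN-primed 1, where log2(FPKM + 1) changed by -0.090 per doubling of length relative to its group, and spleen-primed 3, at 0.079. Of the 21 calls between the primed groups, 18 passed under every alternative run, and the other 3 were Dtymk, Gmps and Taldo1. The matching share over all genes tested was not counted. Gmps was at 0.30 (adjusted p = 0.139) with the length trend removed.

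**Figure D5:**
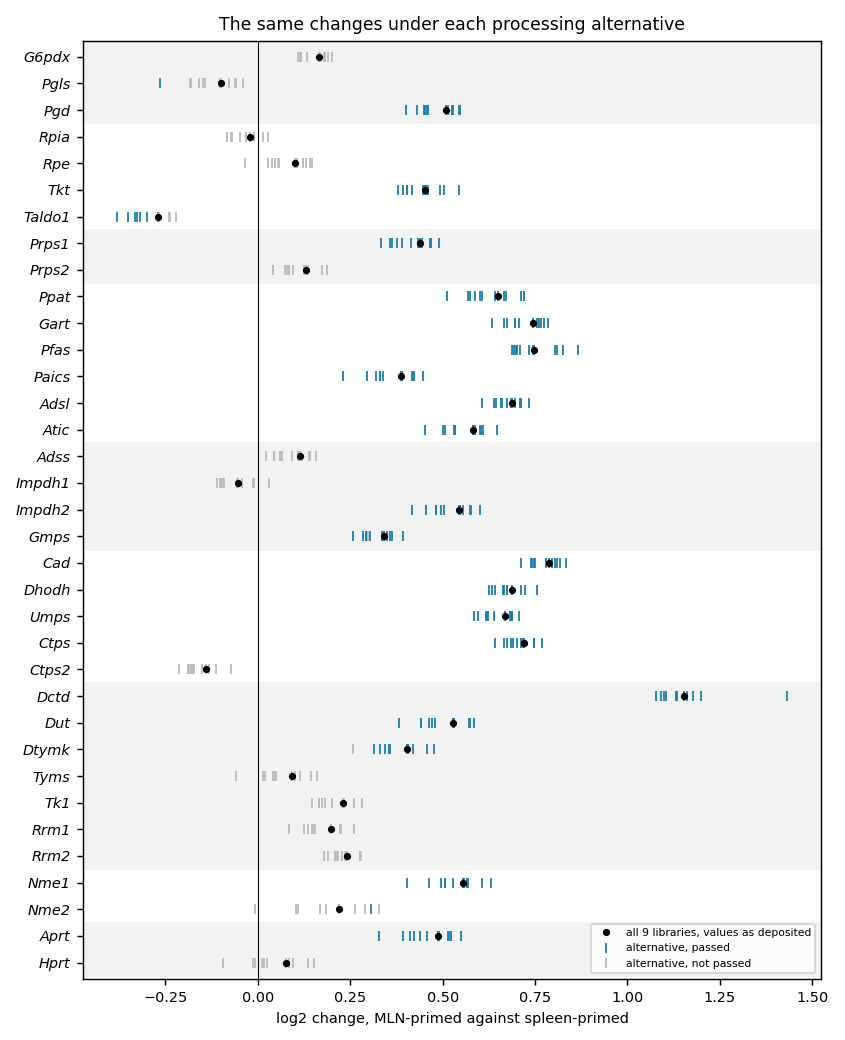
Log2 change between MLN-primed and spleen-primed cells for each of the 35 genes, with a black point for all 9 libraries as deposited and a tick for each processing alternative, blue where the adjusted p was under 0.05 and grey where it was not; ticks of the same value lie under the point. Dctd has the largest change at 1.15, and genes such as Rpia, Impdh1 and Hprt have ticks on both sides of 0.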

How the data were processed

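RNA of naive, spleen-primed and MLN-primed OT-I CD8 T cells, 3 libraries each, was prepared with RNeasy Plus Micro and TruSeq Stranded mRNA kits, per the labels' protocols. The authors deposited 1 FPKM value per gene and library, made with TopHat and Cufflinks on mm10 per the submitters' processing notes. For versions, annotation, filters and strand settings: not given in the sources used here. A second table was identical to the first and was not used.

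Of 24067 rows, 131 had no symbol (0.0479% of the FPKM) and were left out. FPKM keep no fragment numbers, so depth was estimated from single-transcript genes of low level, taking length less 200 bases as the effective length. Between 69.6% and 73.4% of their values lay within 0.15 of a whole fragment, against 30% if spread evenly, and no count test was run. FPKM were used as deposited, as log2(FPKM + 1), with a filter of 1 FPKM in 3 libraries. A single limma-trend model of all 9 libraries was used (limma 3.58.1, two-sided, Benjamini-Hochberg adjustment over 10185 genes) in R 4.3.3, and was tested on simulated data. Ratios and figures used Python 3.11.15 with scipy 1.17.1, numpy 2.4.6, matplotlib 3.10.9 and pandas 2.3.3. Errors are SD for levels and the model's SE for log2 changes.

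Same-numbered libraries deviated together (correlation over 0.1 in every pair) between spleen-primed and naive cells and not in the comparisons with MLN-primed cells, from the values alone, since the labels give no pairing. The 35 genes and all lists were chosen with earlier results of these data known. Every one of the 35 is named. From each other list and comparison, up to 3 genes with the largest changes among those that passed without overlap could be named, and Rrm2b as a ratio partner. The alternatives changed the pseudocount to 0.1, the filter to none or to 5 FPKM, the scale by median-of-ratios or quantile normalisation, and the variance prior to a robust one. Others fitted only the groups compared, added a replicate block, removed the length trend, left out each library in turn, or left out both spleen-primed 3 and MLN-primed 1. Leaving out libraries for the ratios was added after seeing the data. Transcript lengths came from the GENCODE annotation, known for 99.0% of tested genes, and promoters and gene positions from RefSeq on GRCm38.p6. Protein sequences and a genome sequence were not used here. Some genes of the neighbouring lists are not reported here.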

Additional observations from a re-analysis of the deposited data

How the results depend on the processing

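With 1 library of a group left out in turn, 29 of the 35 genes were called higher after spleen priming and 31 after MLN priming against naive each time, and 20 to 22 in MLN-primed against spleen-primed cells. The number called lower was 1 to 2, 1 to 2 and 0 to 1, and the median log2 change 0.87 to 0.97, 1.36 to 1.5 and 0.31 to 0.46. Calls among all genes tested, in either direction, numbered 6952 to 7880, 7301 to 8070 and 2123 to 3166 in the same fits. Over all alternatives run, 24 of 31 calls in spleen-primed against naive, 30 of 32 in MLN-primed against naive and 18 of 21 between the primed groups passed each time. The share of calls over all genes tested that passed each time was not counted, so these numbers are not read as particular to the pathway.

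Scale mattered most for comparisons with naive cells. The median log2 change of all genes against naive moved from 0.10 and 0.15 to -0.01 and -0.01 with median-of-ratios scaling and to -0.07 and -0.04 with quantile normalisation, and that of the 35 genes from 0.91 and 1.44 to 0.79 and 1.27 and to 0.58 and 1.01. The share of all calls that were higher went from 56.8% to 46.6% in spleen-primed against naive under quantile normalisation, and from 56.9% to 46.2% between the primed groups with the length trend removed. With that trend removed the median of the 35 genes in MLN-primed against naive cells was 1.28. Without spleen-primed 3 and MLN-primed 1 it was 0.26 between the primed groups. Called lower in MLN-primed against naive were 3 with median-of-ratios scaling, 4 with quantile normalisation, 3 with the length trend removed and 2 without those 2 libraries. In spleen-primed against naive they were 4 with quantile normalisation, 5 with the length trend removed and 1 without those 2 libraries, where 2, Taldo1 and Pgls, were called lower between the primed groups. The cause of these shifts was not tested.

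Some log2 changes took the other sign. In spleen-primed against naive these were, with median-of-ratios scaling, Pgls -0.029, Impdh1 -0.077 and Dhodh -0.10; with quantile normalisation, Pgls -0.39, Impdh1 -0.37, Nme2 -0.11, Prps1 -0.071, Impdh2 -0.063 and Gart -0.0030; and with the length trend removed, Pgls -0.34, Dhodh -0.22 and Impdh1 -0.11. In MLN-primed against naive Taldo1 was at -0.019 with quantile normalisation and Impdh1 at 0.032 without spleen-primed 3 and MLN-primed 1. Without those 2 libraries the values between the primed groups were 0.027 for Rpia, -0.035 for Rpe, 0.029 for Impdh1, -0.059 for Tyms, -0.0069 for Nme2 and -0.093 for Hprt. With single libraries left out, the ranges that crossed 0 were, in spleen-primed against naive, -0.031 to 0.11 for Impdh1 (below 0 without naive 2) and -0.027 to 0.029 for Dhodh (below 0 without naive 3 or spleen-primed 2). In MLN-primed against naive they were -0.089 to 0.061 for Pgls (above 0 without naive 2, MLN-primed 2 or MLN-primed 3) and -0.084 to 0.054 for Impdh1 (above 0 without naive 3 or MLN-primed 1). Between the primed groups they were -0.048 to 0.015 for Rpia (above 0 without spleen-primed 3) and -0.012 to 0.15 for Hprt (below 0 without spleen-primed 3 or MLN-primed 1). The log2 difference in Rrm2 over Rrm1 between the primed groups, 0.04, ranged from -0.016 to 0.089.

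With the replicate block, Prps2 passed as lower in MLN-primed against naive (-0.22, adjusted p = 0.0447), which made 2 genes called lower there, and no other call of the 35 genes changed. Same-numbered spleen-primed and naive libraries deviated together (correlations of 0.16, 0.12 and 0.24), and the block changed no call of the 35 genes in that comparison. In both comparisons with MLN-primed cells the numbers did not pair all libraries, since MLN-primed 2 correlated with spleen-primed 2 and with naive 2 at -0.24 each, while MLN-primed 1 and MLN-primed 3 correlated with spleen-primed 1 and spleen-primed 3 at 0.64 and 0.49. Depth limits Tk1 in naive cells, at 18.6 estimated fragments in naive 1.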
